A study of Mus musculus with 6 samples.

Results

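The collagen genes are the 44 rows of the deposited count table, of 25239 rows in all, whose symbol has the form of Col, a type number, a and a chain number. They were grouped by the kind of assembly their protein forms into 11 fibrillar, 6 basement membrane (type IV), 9 FACIT and 18 other collagens. The study concerns Hnrnpl, which encodes an RNA-binding regulator of splicing, and the pool of primordial follicles. RNA of C57BL/6 ovaries at E18.5 was sequenced in 3 libraries with the genotype WT and 3 with the genotype Hnrnpl-null (here also null). The titles of the second group carry the abbreviation CKO, and the labels name neither the driver of the deletion nor the cells it acts in. Ovaries were taken apart with Liberase and DNase, and the labels call the cell type oocyte but name no sort. They do not tie libraries to animals or litters, so a p-value here covers the spread among libraries, part of which may be technical. In bulk libraries such as these, fewer cells of a type and less RNA per cell cannot be told apart.

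Collagens are secreted or membrane proteins whose chains wind around each other in a helix, and they are the main structural proteins of connective tissue. Fibrillar collagens pack into fibrils, type IV collagens form the sheet-like networks of basement membranes, and FACITs, the fibril-associated collagens with interrupted helices, bind to the surface of fibrils. In the ovary, fibrils and microfilaments lie in the stroma and the capsule, while type IV networks surround cords, follicles and vessels. Stromal and other somatic cells are the usual makers of fibrillar collagen.

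Hnrnpl itself was at 172, 169 and 145 CPM (counts scaled by library size) in the WT libraries and at 166, 173 and 213 CPM in the null libraries. The groups overlapped (ratio 1.13, 0.936 to 1.37, edgeR adjusted p = 0.50), and without the deleted exons named, a count over the whole gene does not check the genotypes. Total counts per library ran from 8949781 to 22401419. Most of WT replicate 1 (83.0%) and null replicate 3 (86.1%) was Rn45s, the 45S pre-ribosomal RNA, which took 18.6% to 36.0% of the rest, and 1757572 to 10980179 counts were left for all other genes. RNA of genes usual in somatic cells was present beside that of the labelled cell type. The germ cell marker list (Ddx4, Dazl, Sycp3, Mael, Tex101 and Stk31) summed to 162 to 191 CPM in WT, while the fibrillar collagens summed to 6316 to 6863 CPM and the stromal list to 407 to 418 CPM. The lists differ in number and length of genes, so these sums do not measure shares of cells.

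Levels below are RPKM, here CPM on the TMM-scaled library size per 1000 bases of the gene's exonic length, so that genes can be compared. Fold changes are of Hnrnpl-null over WT from edgeR's quasi-likelihood test across 14849 genes, and the call threshold was 0.05 on the Benjamini-Hochberg adjusted p. Where no other tool or fit is named, "called" and "not called" refer to this edgeR fit of all 6 libraries.

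In the libraries labelled Hnrnpl-null, the abundant fibrillar collagens were higher, while the abundant type IV chains were not called. Of the 44 collagen genes, 43 passed the filter on low counts, and 10 of the 43 (23.3%) were called higher, against 2.67% of all genes tested and 4.46% called in either direction. None was called lower (0 of 43 by edgeR, against 1.79% of all genes). At an unadjusted p below 0.05, 19 collagens were higher, against 9.97% of all genes, and 3 were lower, against 8.53%. In either direction, 2746 of all 14849 genes were below that value. DESeq2 called 14 collagens higher and 1 lower (Col6a4), and limma-voom 15 higher and 2 lower (Col6a4 and Col22a1). Over all 14849 genes these tools also made more calls, 646 higher and 445 lower with DESeq2 and 775 and 498 with limma-voom, against 397 and 266 with edgeR. Of the called genes, 5 were fibrillar, 1 type IV, 1 a FACIT and 3 of the other types. The median log2 fold change of the tested collagens was 0.33, beside -0.01 for all genes tested. The groups did not overlap for 20 collagens that were higher in Hnrnpl-null, against 12.4% of all genes, and for 5 that were lower, against 13.2% of all genes, or 25.6% in either direction.

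**Figure D1:**
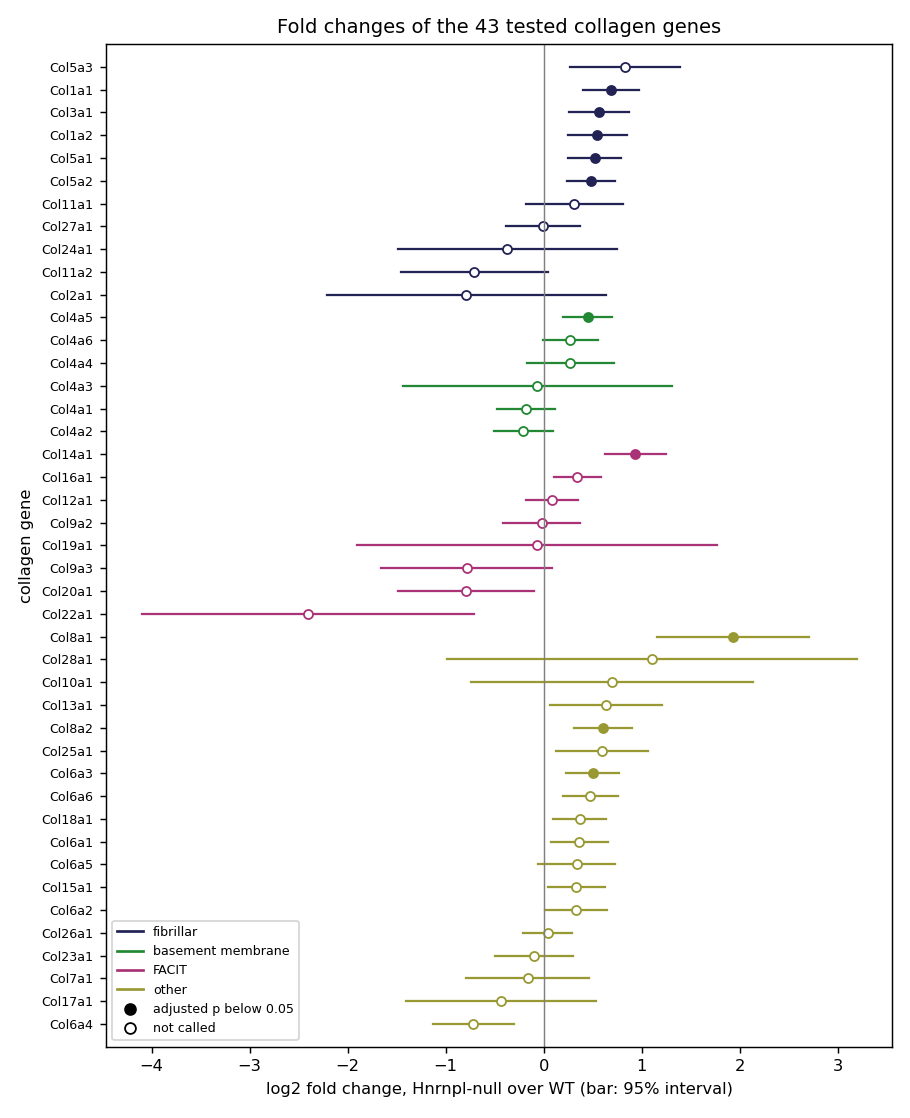
Log2 fold changes (Hnrnpl-null over WT) of the 43 tested collagen genes, with 95% intervals from the edgeR test, coloured by group. Filled points are the 10 genes called at an adjusted p below 0.05. All 10 lie above 0, between 0.45 for Col4a5 and 1.93 for Col8a1.

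The number of calls changed when a library was left out. Collagens called higher numbered 3, 2 and 4 without WT replicates 1, 2 and 3, and 4, 1 and 10 without null replicates 1, 2 and 3. Calls higher over all genes in the same fits numbered 230, 146 and 207, and 226, 145 and 532, against 397 with all 6 libraries. When both libraries rich in Rn45s were left out, 11 were called higher, the 10 above among them, and 1 (Col6a4) was called lower. The shares of all genes called higher and lower in that fit were 3.29% and 2.03%. When counts outside Rn45s were used as library sizes with no scaling factors, 1 collagen was called higher (Col8a1), and the split of all calls went from 397 higher and 266 lower to 123 higher and 132 lower. The 10 genes were higher in Hnrnpl-null in each of the 18 other fits. Of all counts outside Rn45s, collagens took 1.85%, 2.60% and 2.50% in the WT libraries and 3.31%, 3.56% and 2.41% in the null libraries. On this share the groups overlapped, and the libraries rich in Rn45s were the lowest of their groups.

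**Figure D2:**
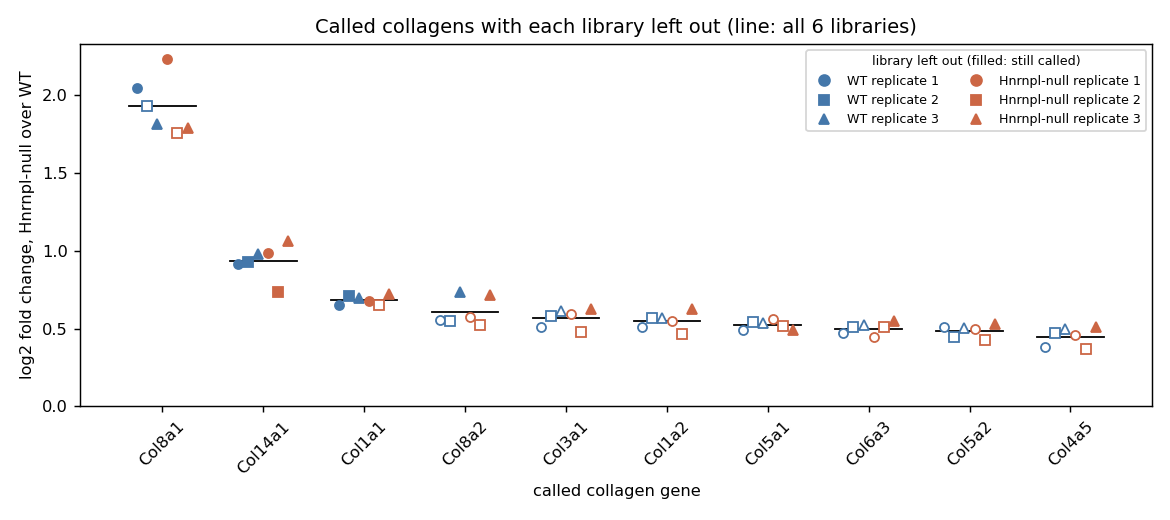
Log2 fold change (Hnrnpl-null over WT) of each of the 10 called collagens when 1 library is left out. The symbol names the library left out, filled symbols are fits in which the gene was still called, and the line is the value with all 6 libraries. Col14a1 is filled in all 6 fits and Col1a1 in 5.

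Fibrillar collagens made up most of the collagen RNA, with 68.4% to 70.7% of the summed collagen RPKM in WT and 72.8% to 75.0% in Hnrnpl-null. Their summed level was 1149 ± 54.6 RPKM in WT and 1749 ± 130 RPKM in Hnrnpl-null (SD, n = 3 each). On this TMM scaling, whose factors ran from 0.252 (null replicate 3) to 2.07 (WT replicate 2), the groups did not overlap. Groups called separate here and below are separate on this scaling. The collagen share of counts outside Rn45s, given above, overlapped. Of the 11 fibrillar genes, 5 were called higher, 6 were not called, and the median log2 fold change was 0.48.

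Col1a1 encodes the more numerous chain of type I collagen, the main collagen of skin, bone and stroma, and was the most abundant collagen gene in both groups. Its level was 449.6, 487 and 475 RPKM in WT replicates 1 to 3 and 762, 790.1 and 717 RPKM in null replicates 1 to 3. Each Hnrnpl-null library was above each WT library. The ratio was 1.61 (95% interval 1.32 to 1.96, edgeR adjusted p = 0.01), and the call was lost without null replicate 2 (edgeR adjusted p = 0.054). The partner chain of type I, Col1a2, ranked after Col1a1 and Col3a1, at 222, 244 and 240.4 RPKM in WT and 342, 381 and 309 RPKM in Hnrnpl-null. These groups were also separate, with a ratio of 1.46 (1.19 to 1.80, edgeR adjusted p = 0.042). Col3a1, whose product forms fibrils together with type I collagen in distensible tissues, was second in level, at 328, 361 and 374 RPKM in WT and 502, 589 and 484 RPKM in Hnrnpl-null. It rose by a ratio of 1.48 (1.20 to 1.83, edgeR adjusted p = 0.038).

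Type V collagen sits inside type I fibrils and sets where they start and how wide they grow. Its chain Col5a1 was at 49.3, 53.1 and 52.0 RPKM in WT and 69.8, 74.7 and 77.3 RPKM in Hnrnpl-null, a ratio of 1.44 (1.19 to 1.73, edgeR adjusted p = 0.032). Col5a2 was at 30.1, 27.7 and 29.6 RPKM in WT and 40.0, 43.9 and 38.2 RPKM in Hnrnpl-null, a ratio of 1.40 (1.18 to 1.66, edgeR adjusted p = 0.03). For both chains each Hnrnpl-null library exceeded each WT library. Col3a1 and Col5a2 are neighbours on chromosome 1, tail to tail and 24.6 kb apart (mm10). The third type V chain, Col5a3, was far lower, at 1.28 ± 0.294 and 2.29 ± 0.709 RPKM (SD, n = 3 each), and was not called (edgeR adjusted p = 0.096), except with no filter on low counts (edgeR adjusted p = 0.019). For Col1a2, Col3a1, Col5a1 and Col5a2 leaving out any 1 library but the last null one ended the call, with an edgeR adjusted p of 0.063 to 0.17. Col1a2 and Col3a1 also lost the call with halved counts (edgeR adjusted p = 0.052 and 0.053).

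The other fibrillar genes were low. Col27a1, a minor fibrillar collagen, was at 4.35 ± 0.626 RPKM in WT and 4.24 ± 1.05 RPKM in Hnrnpl-null (SD, n = 3 each). The cartilage fibril genes Col2a1, Col11a1 and Col11a2 and the minor type XXIV gene Col24a1 averaged 0.276 to 1.16 RPKM over all libraries. None of these 5 was called, with log2 fold changes from -0.79 to 0.31. The cartilage marker list, which holds none of these collagens, summed to 17.0 to 24.5 CPM in WT and 18.2 to 22.9 CPM in Hnrnpl-null. Of its 4 tested members, 0 were called by any of edgeR, limma-voom or DESeq2. An unadjusted p below 0.05 was found for 2 of them, beside 2746 of all 14849 genes.

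**Figure D3:**
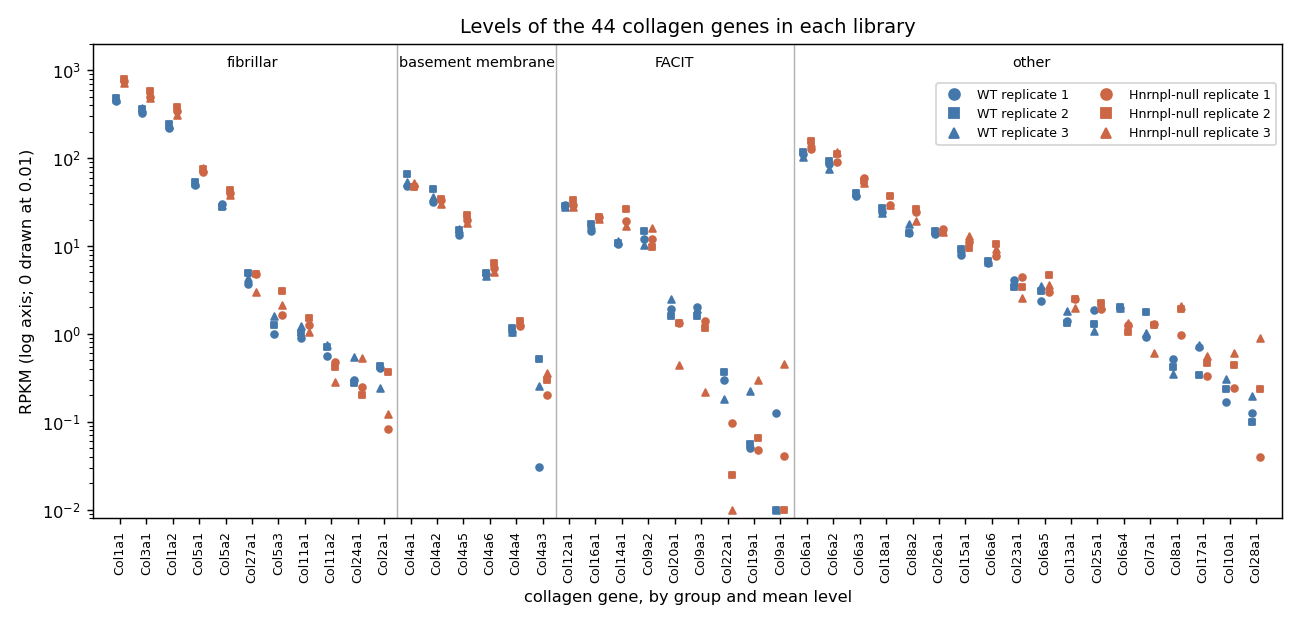
RPKM (log axis) of each of the 44 collagen genes in each of the 6 libraries, ordered by group and by mean level. Col1a1, Col3a1 and Col1a2 stand above all others, and the levels of the family span from below 0.1 to 790.1 RPKM.

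Sequence upstream of genes that rose is shown for Col1a2 and Col3a1, abundant fibrillar genes that rose by like ratios, and for Col8a1, the gene with the largest ratio. RefSeq's promoter table (GRCm38.p6, the build of mm10) held the start of 35 of the 44 collagen genes as the count table has it. The 250 bases before the start were searched on both strands for the TATA box (TATAAA), the CCAAT box (the letters of its name) and the GC box (GGGCGG). No match of one motif overlapped a match of another in the windows shown. Matches are in capitals, 5′ to 3′ on the gene's strand, for Col1a2 (chr6:4505368-4505617, plus strand), Col3a1 (chr1:45311288-45311537, plus strand) and Col8a1 (chr16:57754738-57754987, minus strand).
Col1a2: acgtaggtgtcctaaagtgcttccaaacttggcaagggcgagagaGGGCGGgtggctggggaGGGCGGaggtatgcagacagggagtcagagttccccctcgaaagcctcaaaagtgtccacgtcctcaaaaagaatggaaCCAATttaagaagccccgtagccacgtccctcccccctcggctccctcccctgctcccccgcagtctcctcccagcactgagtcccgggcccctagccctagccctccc
Col3a1: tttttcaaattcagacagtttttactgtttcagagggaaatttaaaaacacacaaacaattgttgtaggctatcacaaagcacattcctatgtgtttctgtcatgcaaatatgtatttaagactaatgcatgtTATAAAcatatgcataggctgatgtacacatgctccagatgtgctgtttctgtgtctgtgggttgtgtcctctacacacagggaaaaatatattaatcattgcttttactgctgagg
Col8a1: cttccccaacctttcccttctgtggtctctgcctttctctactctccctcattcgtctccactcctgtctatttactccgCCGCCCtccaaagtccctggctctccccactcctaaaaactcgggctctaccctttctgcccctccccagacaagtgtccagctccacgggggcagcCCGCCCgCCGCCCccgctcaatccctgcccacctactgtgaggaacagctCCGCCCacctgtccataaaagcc
The Col1a2 window held 1 CCAAT box, 109 bases before the start, and 2 GC boxes. The Col3a1 window held 1 TATA box, 117 bases before the start, and neither of the other motifs. The Col8a1 window held 4 GC boxes, all on the other strand. Among the 35 collagen windows, 21 (60%) held a GC box, 12 (34.3%) a CCAAT box and 5 (14.3%) a TATA box. The shares among all 32851 windows of the table, noncoding genes included, were 32.7%, 33.8% and 12.4%. A match is a description of the letters and shows no binding.

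Type IV collagens, the network of the basement membrane, held 1 call. Their summed level was 99.4, 133 and 111 RPKM in WT replicates 1 to 3 and 109, 112 and 107 RPKM in null replicates 1 to 3, so the groups overlapped. Of the 6 genes, 1 was called higher and 5 were not called, with a median log2 fold change of 0.10.

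The most abundant pair, Col4a1 and Col4a2, encodes the chains found in nearly all basement membranes. Col4a1 was at 48.5, 66.4 and 52.9 RPKM in WT and 48.6, 47.4 and 52.3 RPKM in Hnrnpl-null. Col4a2 was at 31.6, 45.1 and 36.4 RPKM in WT and 33.7, 34.3 and 29.8 RPKM in Hnrnpl-null. Both genes had overlapping groups, with WT replicate 2 above all others. The ratios were 0.883 (0.718 to 1.09) and 0.865 (0.703 to 1.06), with edgeR adjusted p of 0.54 and 0.47, and neither interval reaches the Col1a1 ratio of 1.61. The genes lie head to head on chromosome 8, with start sites so close that their first exons overlap by 22 bases in the count table (chr8:11312805-11312826, mm10). That stretch, shown because reads from it cannot be given to either gene without a known strand setting, is given for the plus strand, wholly in capitals as every base is shared.
Col4a1 and Col4a2 overlap: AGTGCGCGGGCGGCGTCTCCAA

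The call fell in the pair on chromosome X. Col4a5, a chain of kidney and other specialised basement membranes, was at 13.4, 15.4 and 15.8 RPKM in WT and 19.96, 22.4 and 18.4 RPKM in Hnrnpl-null, with separate groups. Its ratio was 1.36 (1.15 to 1.62, edgeR adjusted p = 0.046), and of the 6 fits that leave out 1 library the one without the last null library kept the call (edgeR adjusted p of 0.091 to 0.20 in the others). Its head-to-head neighbour Col4a6, whose chain pairs with that of Col4a5 in smooth muscle and epithelial basement membranes, was at 4.76, 4.92 and 4.52 RPKM in WT and 5.58, 6.35 and 5.08 RPKM in Hnrnpl-null. It was not called, with a ratio of 1.21 (0.994 to 1.47, edgeR adjusted p = 0.29). The intervals of the neighbours overlap, and the difference between them was not tested. Their starts are 1342 bases apart, so the 250 bases before each are separate, as shown for Col4a5 (chrX:141475169-141475418, plus strand) and Col4a6 (chrX:141474077-141474326, minus strand) with matches in capitals.
Col4a5: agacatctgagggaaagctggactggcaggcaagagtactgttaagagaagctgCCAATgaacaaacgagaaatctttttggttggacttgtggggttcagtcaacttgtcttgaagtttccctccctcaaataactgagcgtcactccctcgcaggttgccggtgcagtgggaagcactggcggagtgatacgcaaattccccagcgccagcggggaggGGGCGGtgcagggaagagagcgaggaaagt
Col4a6: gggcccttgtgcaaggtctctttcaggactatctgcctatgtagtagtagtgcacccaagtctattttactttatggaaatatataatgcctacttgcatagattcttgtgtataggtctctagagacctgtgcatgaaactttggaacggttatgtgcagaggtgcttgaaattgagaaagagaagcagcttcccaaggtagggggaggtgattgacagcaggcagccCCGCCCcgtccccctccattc
Both windows held 1 GC box near the start, and the Col4a5 window also held 1 CCAAT box, 196 bases before it. The third pair, Col4a3 and Col4a4, whose chains join that of Col4a5 in the kidney filter, was low. Col4a4 was at 1.09 ± 0.0731 RPKM in WT and 1.33 ± 0.0766 RPKM in Hnrnpl-null (SD, n = 3 each), with a ratio of 1.21 (0.886 to 1.64). Col4a3 was at 0.0306, 0.52 and 0.256 RPKM in WT, where replicate 1 rests on 2 counts, and at 0.201, 0.301 and 0.363 RPKM in Hnrnpl-null. Neither was called.

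**Figure D4:**
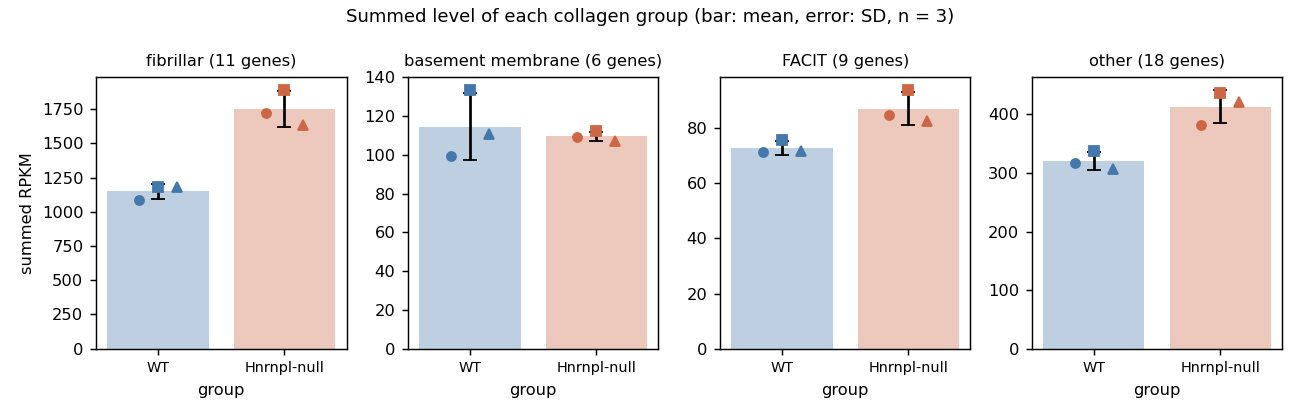
Summed RPKM of each collagen group in WT and Hnrnpl-null libraries. Bars are means, error bars SD over 3 libraries and points single libraries, with each vertical axis starting at 0. The fibrillar sum was 1149 in WT and 1749 in Hnrnpl-null, while the basement membrane sum was 115 and 109.6 with overlapping points.

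Of the 8 tested FACITs 1 was called higher and 7 were not called, with a median log2 fold change of -0.05. Col14a1, whose product coats fibrils of skin, tendon and other stroma, had the smallest adjusted p of the 43 tested collagens. It was at 10.5, 10.8 and 11.4 RPKM in WT and 19.4, 26.2 and 16.8 RPKM in Hnrnpl-null, with no overlap. The ratio was 1.91 (1.54 to 2.38, edgeR adjusted p = 0.0023), and the gene was called in all 6 fits that left out 1 library (edgeR adjusted p of at most 0.023). It was not called with totals outside Rn45s alone (edgeR adjusted p = 0.075). Col12a1, a close relative with a like role on fibrils, was at 29.4, 28.7 and 27.6 RPKM in WT and 29.4, 33.5 and 28.0 RPKM in Hnrnpl-null. Its groups overlapped, with a ratio of 1.06 (0.883 to 1.27, edgeR adjusted p = 0.77), an interval that does not meet that of Col14a1, though the difference was not tested. Col16a1 was at 16.6 ± 1.71 and 21.1 ± 0.651 RPKM (SD, n = 3 each) and was not called by edgeR (adjusted p = 0.11), while DESeq2 and limma-voom called it higher (DESeq2 adjusted p = 0.039, limma-voom adjusted p = 0.038).

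Col9a2, a cartilage FACIT chain, was at 12.4 ± 2.29 RPKM in WT and 12.6 ± 3.10 RPKM in Hnrnpl-null (SD, n = 3 each), with an edgeR adjusted p of 0.97. The chains it assembles with were scarce by comparison. The exons of Col9a3 overlap those of Tcfl5, and Col9a1 had 4, 0 and 0 counts in WT and 4, 0 and 6 counts in Hnrnpl-null and was not tested. Of the scarce FACITs, 3 were lower in each null library without being called by edgeR, a separation that 13.2% of all genes showed. Col9a3 was at 2.04, 1.60 and 1.94 RPKM in WT and 1.39, 1.16 and 0.22 RPKM in Hnrnpl-null (edgeR adjusted p = 0.33). Col20a1 was at 1.92, 1.58 and 2.47 RPKM in WT and 1.33, 1.32 and 0.448 RPKM in Hnrnpl-null (edgeR adjusted p = 0.20). In null replicate 3 these values rest on 2 counts for Col9a3 and 6 for Col20a1. Col22a1, known from junctions of muscle and tendon, had 14, 54 and 16 counts in WT and 14, 4 and 0 counts in Hnrnpl-null, too few for a precise ratio (0.188, 0.0583 to 0.61, edgeR adjusted p = 0.11). Limma-voom called Col22a1 lower. Col19a1 was at 0.109 ± 0.098 and 0.136 ± 0.139 RPKM (SD, n = 3 each).

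Of the 18 other collagens, 3 were called higher and 15 were not called, with a median log2 fold change of 0.36. Type VI builds the beaded microfilaments that lie between fibrils and cells. Its main chains are Col6a1, Col6a2 and Col6a3. Col6a3 was at 37.6, 39.9 and 39.9 RPKM in WT and 59.4, 54.6 and 51.8 RPKM in Hnrnpl-null, and rose by a ratio of 1.41 (1.17 to 1.71, edgeR adjusted p = 0.042). Of the 6 fits that leave out 1 library, the one without the last null library kept this call (the others had an edgeR adjusted p of 0.093 to 0.13). Col6a1 was at 113, 119 and 104 RPKM in WT and 128, 155 and 149 RPKM in Hnrnpl-null, with separate groups. Col6a2 was at 86.1, 91.9 and 76.0 RPKM in WT and 90.3, 110.3 and 118 RPKM in Hnrnpl-null, with WT replicate 2 above null replicate 1. Neither was called by edgeR, with ratios of 1.29 (1.05 to 1.57) and 1.26 (1.01 to 1.56) and adjusted p of 0.16 and 0.24, while DESeq2 and limma-voom called Col6a1 higher (DESeq2 adjusted p = 0.0082, limma-voom adjusted p = 0.016).

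The alternative type VI chains Col6a4, Col6a5 and Col6a6 lie in a row on chromosome 9, with 28.0 kb between Col6a6 and Col6a5 and 29.7 kb between Col6a5 and Col6a4 (mm10), and can stand in for the Col6a3 chain. Their estimates differed in sign. Col6a4 was at 1.95, 2.01 and 1.96 RPKM in WT and 1.26, 1.05 and 1.34 RPKM in Hnrnpl-null, lower in each library. It missed the threshold (ratio 0.607, 0.456 to 0.808, edgeR adjusted p = 0.0501) and was called lower in 9 of 18 other fits. Col6a6 was at 6.49, 6.67 and 6.64 RPKM in WT and 7.75, 10.6 and 9.20 RPKM in Hnrnpl-null, higher in each library but also just outside the threshold (ratio 1.39, 1.15 to 1.69, edgeR adjusted p = 0.055). It was called higher in 7 of 18 other fits, among them DESeq2 (adjusted p = 0.016) and limma-voom (adjusted p = 0.033). The interval of Col6a4 lies below 1 and that of Col6a6 above it. Within a library, the ratio of Col6a6 to Col6a4 was 3.33, 3.32 and 3.38 in the WT libraries and 6.16, 10.1 and 6.85 in the null libraries, a measure that library size cannot change. Col6a5 was at 2.97 ± 0.556 and 3.75 ± 0.847 RPKM (SD, n = 3 each) and was not called.

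Type VIII collagen forms the lattice of Descemet's membrane in the eye and occurs around vessels. Both of its chains were higher. Col8a1 was at 0.516, 0.422 and 0.351 RPKM in WT and 0.973, 1.94 and 2.08 RPKM in Hnrnpl-null, with no overlap. The ratio was 3.81 (2.23 to 6.53, edgeR adjusted p = 0.0081), the largest among the called collagens, on 20, 52 and 26 counts in WT and 118, 260 and 34 counts in Hnrnpl-null. Leaving out the second library of either group ended the call (edgeR adjusted p of 0.052 to 0.081). Col8a2 was far more abundant, at 14.2, 14.2 and 17.9 RPKM in WT and 24.5, 26.1 and 19.5 RPKM in Hnrnpl-null. It rose by a ratio of 1.52 (1.24 to 1.87, edgeR adjusted p = 0.024), a call lost when the first or second library of either group was left out (edgeR adjusted p of 0.081 to 0.14). The ratio of Col8a2 to Col8a1 was 27.5, 33.7 and 51.0 in WT and 25.2, 13.5 and 9.37 in Hnrnpl-null.

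The multiplexins, basement membrane collagens that release antiangiogenic fragments, and the transmembrane collagens were not called by edgeR with all 6 libraries. DESeq2 and limma-voom called Col18a1 higher (DESeq2 adjusted p = 0.028, limma-voom adjusted p = 0.032), and limma-voom (adjusted p = 0.036) and edgeR without both libraries rich in Rn45s (adjusted p = 0.032) called Col25a1 higher. Col18a1, the source of endostatin, was at 24.4, 26.9 and 23.7 RPKM in WT and 29.4, 37.6 and 29.4 RPKM in Hnrnpl-null (edgeR adjusted p = 0.14). Col15a1 was at 8.81 ± 0.725 and 11.2 ± 1.77 RPKM (SD, n = 3 each). For both, each Hnrnpl-null library was above each WT library. Col13a1 and Col25a1, transmembrane collagens, were at 1.53 ± 0.265 and 1.41 ± 0.405 RPKM in WT and 2.32 ± 0.299 and 2.09 ± 0.174 RPKM in Hnrnpl-null (SD, n = 3 each), with edgeR adjusted p of 0.21 and 0.16. Col26a1, a collagen described in testis and ovary, was at 13.7, 14.95 and 14.8 RPKM in WT and 15.5, 14.6 and 14.6 RPKM in Hnrnpl-null, a ratio of 1.03 (0.866 to 1.22). The remaining other collagens, Col7a1, Col10a1, Col17a1, Col23a1 and Col28a1, averaged 0.263 to 3.63 RPKM over all libraries, and none was called (edgeR adjusted p of 0.60 or more).

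Chains of type V and the most abundant pairs of types IV and VI had ratios that overlapped between the groups, while those of type I differed slightly. The RPKM ratio of Col1a1 to Col1a2 was 2.02, 2.002 and 1.98 in WT and 2.22, 2.07 and 2.32 in null libraries. Type I collagen holds more of the Col1a1 chain, and the RNA ratio in Hnrnpl-null was slightly higher, with no overlap. The ratio of Col4a1 to Col4a2 was 1.49 ± 0.0425 in WT and 1.53 ± 0.198 in Hnrnpl-null (SD, n = 3 each), with overlapping groups. Col5a1 to Col5a2 was 1.77 ± 0.139 and 1.82 ± 0.176, and Col6a1 to Col6a2 1.32 ± 0.0369 and 1.36 ± 0.087 (SD, n = 3 each), also with overlap.

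Some other pairs of chains within a type separated between the groups, and others did not. Col4a5 to Col4a6 was 2.83, 3.13 and 3.49 in WT and 3.58, 3.52 and 3.62 in null libraries, and the ratios of Col6a6 to Col6a4 and of Col8a2 to Col8a1 given above also did not overlap. Col6a5 to Col6a4 was 1.51 ± 0.276 and 3.16 ± 1.11 (SD, n = 3 each), again with no overlap. The groups overlapped for Col6a3 to Col6a1 (0.351 ± 0.0289 and 0.388 ± 0.0666) and Col6a3 to Col6a2 (0.465 ± 0.0516 and 0.53 ± 0.114). They also overlapped for the scarce Col4a3 to Col4a4 (0.237 ± 0.206 and 0.215 ± 0.0526, SD, n = 3 each). Between types, Col3a1 to Col1a1 was 0.753 ± 0.0306 in WT and 0.693 ± 0.0459 in Hnrnpl-null (SD, n = 3 each), with overlap. Col4a1 to Col1a1 was 0.108, 0.136 and 0.111 in WT and 0.0638, 0.06 and 0.0729 in Hnrnpl-null. Col14a1 to Col12a1 was 0.358, 0.375 and 0.415 in WT and 0.659, 0.781 and 0.602 in Hnrnpl-null. These last 2 ratios were picked after the values were seen, and no ratio was tested. How often ratios of other gene pairs separate was not computed, so the separations above have no such reference.

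**Figure D5:**
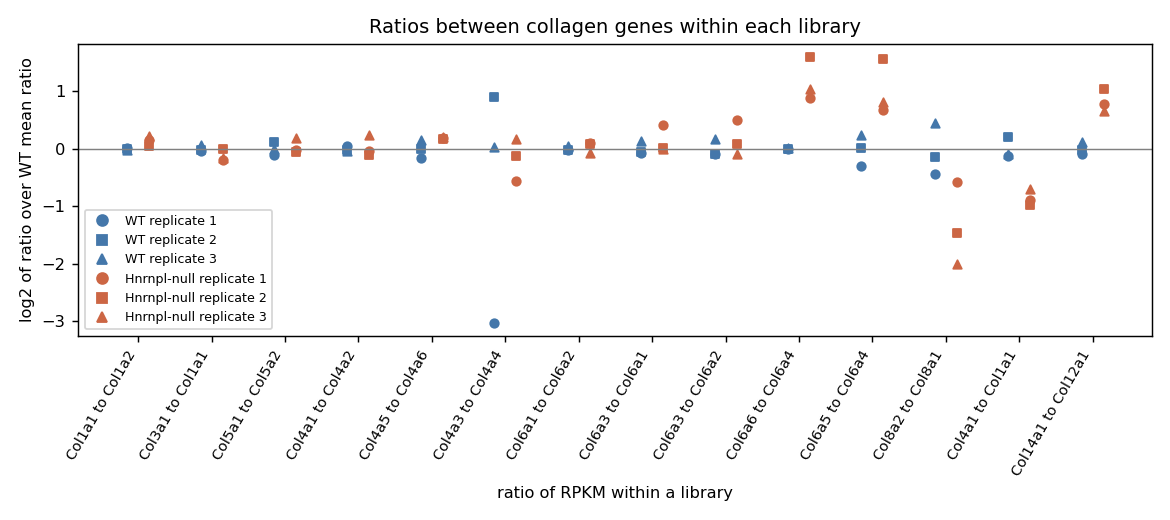
Ratios of RPKM between pairs of collagen genes in each library, as log2 of the ratio over the mean WT ratio. Ratios of chains of types IV (Col4a1 to Col4a2) and V stay near 0 with overlapping groups, and that of type I is slightly higher in Hnrnpl-null with no overlap. Col6a6 to Col6a4 (3.35 in WT, 7.69 in Hnrnpl-null on average) and Col4a1 to Col1a1 (0.118 and 0.0656) shift further.

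Genes that make, process, degrade or bind collagen were read from 5 lists of 76 genes in all. Of the 71 tested, 4 were called higher, 1 lower and 66 were not called, with a median log2 fold change of 0.14 against -0.01 for all genes. The share called higher (P4ha2, P4hb, Lox and Mrc2) is to be read beside 2.67% of all genes, and the share called lower (Mmp8) beside 1.79% of all genes.

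Of 23 genes of chain modification and folding, 2 were called higher, both of prolyl 4-hydroxylase, which hydroxylates proline and so stabilises the helix. P4hb, the shared subunit, was at 236, 233 and 225 CPM in WT and 304, 339.9 and 316 CPM in Hnrnpl-null (ratio 1.38, 1.17 to 1.64, edgeR adjusted p = 0.033). P4ha2, a catalytic subunit, went from 10.7 ± 2.06 to 19.0 ± 3.53 CPM (SD, n = 3 each, edgeR adjusted p = 0.04). The collagen chaperone Serpinh1 was at 349 ± 30.2 and 381 ± 32.4 CPM, which was not a call (edgeR adjusted p = 0.65). Of 11 tested genes of processing and crosslinking, 1 was called. Lox, which starts the covalent crosslinks of fibrils, was at 64.0, 56.6 and 67.3 CPM in WT and 89.5, 112 and 74.4 CPM in Hnrnpl-null (ratio 1.48, 1.19 to 1.84, edgeR adjusted p = 0.042). Pxdn, which crosslinks type IV collagen, was at 165 ± 10.6 and 181 ± 15.9 CPM, and the procollagen protease Adamts2 at 97.2 ± 7.27 and 122 ± 5.20 CPM (SD, n = 3 each), neither called by edgeR, while DESeq2 called Adamts2 higher.

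Of 12 tested genes of collagen breakdown and uptake, Mrc2 was higher and Mmp8 lower. Mrc2, an endocytic receptor for collagen, was at 70.5, 78.9 and 72.1 CPM in WT and 92.1, 102 and 112 CPM in Hnrnpl-null (ratio 1.38, edgeR adjusted p = 0.037). Mmp8, a collagenase of neutrophils and other cells, was scarce, at 2.11, 4.06 and 3.03 CPM in WT and 0.927, 0.305 and 0.625 CPM in Hnrnpl-null (edgeR adjusted p = 0.042). The gelatinase Mmp2 was at 192 ± 5.71 and 252 ± 8.15 CPM (edgeR adjusted p = 0.058) and its inhibitor Timp3 at 172 ± 4.82 and 207 ± 18.2 CPM (SD, n = 3 each), neither called by edgeR, while DESeq2 and limma-voom called Mmp2 higher. P4hb, Lox and Mmp8 were still called without null replicate 3, Mrc2 without null replicate 1, and P4ha2 without either, and each was lost without any other library (edgeR adjusted p of 0.054 to 0.24). Mrc2 was also lost without both libraries rich in Rn45s.

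Of 10 collagen receptors, 0 were called by edgeR and 4 had an unadjusted p below 0.05, beside 2746 of all 14849 genes. DESeq2 called 2 of these receptors and limma-voom 1. Itgb1, the shared subunit of the collagen-binding integrins, was at 195 ± 8.29 and 233 ± 23.4 CPM, and Adgrg1, a receptor for type III collagen, at 74.8 ± 8.76 and 84.7 ± 7.33 CPM (SD, n = 3 each). Of 15 other basement membrane genes, 0 were called by edgeR and 2 had an unadjusted p below 0.05, to be read beside the same count of all genes. DESeq2 and limma-voom called 1 each. Hspg2, which encodes perlecan, was at 596, 737 and 649.6 CPM in WT and 736, 670.3 and 644 CPM in Hnrnpl-null, and the laminin chain Lamc1 at 248 ± 15.4 and 272 ± 12.2 CPM (SD, n = 3 each). The groups of Hspg2 overlapped, as those of Col4a1 and Col4a2 did.

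Marker genes of cell types moved beside the collagens, and their part in the results was not tested. Counts of called markers are to be read beside 2.67% of all genes called higher and 1.79% called lower by edgeR. Of all 14849 genes, DESeq2 called 646 higher and 445 lower, and limma-voom 775 and 498. An unadjusted p below 0.05 was found for 2746 of all genes. The stromal list (Pdgfra, Pdgfrb, Dcn, Lum, Nr2f2, Tcf21 and Gli1) summed to 407 to 418 CPM in WT and 453 to 502 CPM in Hnrnpl-null, with Dcn called higher, Gli1 lower and 5 not called by edgeR, while limma-voom also called Lum higher. Dcn, a proteoglycan that binds fibrils, went from 75.9 ± 13.0 to 114 ± 16.3 CPM, whereas Pdgfra was at 146 ± 4.67 and 162 ± 12.9 CPM, which was not a call (SD, n = 3 each). In the surface epithelium list 3 of 6 genes were called higher by edgeR (Upk3b, Krt19 and Msln), 4 by DESeq2 and 5 by limma-voom, with sums of 237 to 291 CPM in WT and 338 to 438 CPM in Hnrnpl-null. Of 7 pregranulosa markers edgeR called Kitl higher and 6 not, while DESeq2 and limma-voom also called Irx3 lower, and the sums were 351 to 383 CPM and 428 to 471 CPM. The germ cell list had 5 of 6 genes called lower and negative estimates for all 6, with sums of 162 to 191 CPM in WT and 81.0 to 110.0 CPM in Hnrnpl-null. The leukocyte list had positive estimates for all 9 tested genes and 7 called higher, among them the granulocyte genes Mpo and Elane and the mast cell genes Cpa3 and Cma1. Its sums were 106 to 119 CPM in WT and 980.4 to 1106 CPM in Hnrnpl-null. Endothelial markers had 0 of 6 called by edgeR (3 at an unadjusted p below 0.05, and 1 higher and 1 lower by both DESeq2 and limma-voom). Estimates were negative for 5 and positive for 1, with a median log2 fold change of -0.50. The sums, in which Kdr and Cdh5 were the most abundant, were 143 to 177 CPM in WT and 150.0 to 161 CPM in Hnrnpl-null. Of 6 markers of smooth muscle and pericytes edgeR called Des higher, while DESeq2 also called Myh11 lower and limma-voom Myh11 lower and Tagln higher, with sums of 121 to 149 CPM and 142 to 152 CPM. Bone markers summed to 5.02 to 6.59 CPM in WT and 5.62 to 10.7 CPM in Hnrnpl-null, with overlapping sums. Of the 3 tested, Runx2 was called higher, while 2 had negative estimates, and the median log2 fold change was -0.60. The osteoblast marker Bglap was at 0 in all WT libraries but not in all 6 libraries. Lists for mesonephric tubules, Schwann and nerve cells and skeletal muscle had 0 called genes by edgeR, DESeq2 or limma-voom (1, 0 and 0 at an unadjusted p below 0.05), with sums of at most 67.0, 44.4 and 6.13 CPM, and the muscle factor Myod1 was at 0 in all 6 libraries.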

How the data were processed

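The authors deposited 1 table of raw counts per gene with exon coordinates and exonic length, in the layout of featureCounts per the file headers. STAR 2.7.11a, HISAT2 2.2.1, featureCounts 2.0.6 and mm10 are named in the submitters' processing notes with no role or order. Neither the annotation, nor the strand setting, nor the treatment of reads with several hits is stated there or in the labels. Of the counts from 1 to 20, 93.4% to 98.4% per library are even, as when both mates of a pair are counted.

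All 6 libraries were fitted with edgeR 4.0.16 in R 4.3.3 (filterByExpr, TMM, glmQLFit and glmQLFTest, two-sided, genotype as the only term), with p-values adjusted over all 14849 genes. Standard errors and 95% intervals were derived from the F statistic. CPM and RPKM were computed from the deposited counts with the TMM-scaled library size and the deposited length. The script was tested on simulated data. Replicates of a group were no duplicates (chi-square over its degrees of freedom at least 5.20, counts halved). DESeq2 1.42.0, limma-voom (limma 3.58.1), other scalings and filters, halved counts, left-out libraries, the replicate number as a block and other thresholds were tried as alternatives, and totals outside Rn45s alone were added after seeing the data. Collagens named are those called, those with an unadjusted p below 0.05, the 4 most abundant of each group and all type IV and VI genes, and in other lists the called genes and the 2 most abundant; other names were chosen after their values were seen. Members and lists were chosen with earlier results of these data known. Upstream sequences are RefSeq's (GRCm38.p6).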

Additional observations from a re-analysis of the deposited data

How the results depend on the processing

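The 10 collagens called higher kept their direction in all 18 other fits, but the number of calls moved. Collagens called higher were 1 to 10 and called lower 0 to 1 when 1 library was left out, against 10 and 0 with all 6 libraries, and partner genes called were 0 to 4 higher and 0 to 1 lower, against 4 and 1. Calls higher over all genes in those fits numbered 145 to 532, against 397. Collagens called higher (and partner genes higher) were 3 (0) at an adjusted p below 0.01, 12 (11) at 0.10, 14 (12) with DESeq2, 15 (10) with limma-voom, 12 (8) with no filter and 1 (0) with totals outside Rn45s alone. Over all genes, calls higher were 646 with DESeq2, 775 with limma-voom, 633 with no filter and 123 with totals outside Rn45s alone. Called lower, collagens numbered 1 in DESeq2, with RLE or upper-quartile factors, with the stricter or no filter, with halved counts, at 0.10 and without both libraries rich in Rn45s, and 2 in limma-voom. The partner gene called lower became 0 at 0.01 and with totals outside Rn45s alone. Partner genes higher were 6 with the Rn45s row left out and with halved counts. With halved counts 9 collagens were called higher, 8 of the 10 among them, beside 465 of all genes. Same-numbered libraries had deviations from their group means correlated at -0.12, 0.09 and -0.09. With 3 libraries per group these values cannot settle whether the replicate number of the titles pairs libraries. With the replicate number as a block, collagens called were 3 higher and 0 lower and partner genes 1 higher and 0 lower, beside 265 higher and 179 lower over all genes. The causes were not tested. Low counts limit genes such as Col22a1, Col9a1, Col19a1 and Col28a1, and their values are imprecise at this depth.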
